A study of Mus musculus with 8 samples.

Results

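The sirtuins and the BET proteins stand at opposite ends of protein acetylation, and their own genes are described here by H3K9ac, the acetyl mark on lysine 9 of the histone H3 tail that is found at active promoters. The set comprised 8 genes, the sirtuin genes Sirt1, Sirt2, Sirt3, Sirt5, Sirt6 and Sirt7 and the BET genes Brd2 and Brd3. Its members were all regions of the deposited table whose gene name is that of 1 of the 8. This gave 6 regions of 11251 in all, with 2 at Brd2 and 1 each at Brd3, Sirt1, Sirt3 and Sirt6, while no region carried the name of Sirt2, Sirt5 or Sirt7. The mark had been mapped by ChIP-seq, the sequencing of DNA pulled down with an antibody to it, in ileal epithelial cells of wild-type C57Bl/6 mice. The butyrate group was 3 libraries from mice given 150 mM butyrate for 7 days, and the vehicle group was 3 libraries from mice given vehicle. Butyrate, which bacteria in the gut release when they ferment fibre, inhibits the zinc-dependent histone deacetylases. Whether the libraries come from different mice is not stated, so p-values here reflect library-to-library spread only, which may be technical. The sources used here do not give the route, the make-up of the vehicle or the age of the mice.

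Sirtuins remove acetyl and other acyl groups from proteins and consume NAD in doing so, which sets them apart from the zinc-dependent deacetylases. Sirt1, Sirt6 and Sirt7 are found in the nucleus, Sirt2 largely in the cytoplasm, and Sirt3 and Sirt5 in mitochondria. BET proteins bind acetylated lysines on histone tails through a pair of bromodomains and bring the transcription machinery to acetylated chromatin.

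H3K9ac over Brd3 and over both Brd2 regions was lower in every butyrate library than in every vehicle library, and so it was at Sirt6. Of all 10529 regions tested, 6.85% were separated in the same way. Both Brd2 regions lie in the same gene, and the separation is a description and not a test. The ratios of the group means, butyrate over vehicle, were 0.784 at Brd3, 0.898 at the Brd2 start and 0.881 at Sirt6. At the Brd2 exon region the ratio was 0.616 on few reads. The mean at Sirt3 was higher with butyrate by a ratio of 1.54, also on few reads, and that at Sirt1 was 0.943 times the vehicle mean. No difference passed adjustment for all regions, so that none of these genes was called as changed. The values are RPKM, reads per kilobase of region scaled to library size, and the deposited scaling gives all libraries nearly the same total over all regions, and every difference is therefore relative to the other regions.

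The libraries held 1255251 to 1828591 reads in regions, and the 6 regions 8 to 1179 reads per library. Epithelial markers had a region within 5 kb of a start at 16 of 17 genes, with summed levels of 79.3 to 85.1 RPKM in butyrate and 83.6 to 89.1 RPKM in vehicle libraries. Of those 16 markers, 5 had a higher and 11 a lower log2 difference with butyrate, with a median of -0.10, and 0 were called by limma. The smallest limma p among them was at Elf3, an epithelial transcription factor gene, with a log2 difference of -0.20 (unadjusted p 0.024, adjusted p 0.64). Of the 5 higher markers, Epcam had the smallest limma p, with a log2 difference of 0.13 (unadjusted p 0.094, adjusted p 0.71). Leukocyte markers had a region at 2 of 12 genes, Ptprc and Laptm5, with sums of 1.76 to 3.06 RPKM in butyrate and 1.66 to 2.30 RPKM in vehicle libraries. Markers of stroma, muscle and endothelium had a region at 2 of 12 genes, Vim and Lyve1, with sums of 1.16 to 1.48 RPKM in butyrate and 1.49 to 2.60 RPKM in vehicle libraries, ranges that just fail to overlap. Those sums rest on few reads, with means of 17.5 at Vim and 9.5 at Lyve1, and Lyve1 was too weak to be tested by limma. The part of these marker differences in the results was not tested. Fewer cells carrying the mark and less of the mark per cell cannot be told apart in these samples.

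Promoters at the start sites under the regions are shown, since the values below are of acetylation there. The regions contain the whole windows of Brd2, Brd3, Sirt6 and Sirt1 but 99 of the 300 bases of the Sirt3 window. Each is 300 bases long, 250 before and 50 after a RefSeq start (GRCm38.p6, the build of mm10), read in the direction of transcription, and all 5 genes lie on the minus strand. Capitals mark matches, on either strand, to any of 7 motifs: the GC box GGGCGG, the CCAAT box CCAAT, the E-box CACGTG, the cyclic AMP response element TGACGTCA, the palindromic NRF1 site (the longest run of capitals in Brd2 and in Sirt6), the ETS site CCGGAAG and the TATA box TATAAA.
Brd2 (outermost start, chr17:34122558-34122857): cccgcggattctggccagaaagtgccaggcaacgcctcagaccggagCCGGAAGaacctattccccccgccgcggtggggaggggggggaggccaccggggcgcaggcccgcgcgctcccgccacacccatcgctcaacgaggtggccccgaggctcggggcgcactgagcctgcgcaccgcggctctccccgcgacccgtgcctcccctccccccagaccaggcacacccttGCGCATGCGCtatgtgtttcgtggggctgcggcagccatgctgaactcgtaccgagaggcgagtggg
Brd3 (chr2:27475349-27475648): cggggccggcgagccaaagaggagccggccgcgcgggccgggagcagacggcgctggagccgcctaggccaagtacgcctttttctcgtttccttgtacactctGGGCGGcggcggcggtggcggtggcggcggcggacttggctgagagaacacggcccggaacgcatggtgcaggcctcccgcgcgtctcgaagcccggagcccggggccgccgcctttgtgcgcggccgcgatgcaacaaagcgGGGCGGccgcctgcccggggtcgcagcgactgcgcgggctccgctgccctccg
Sirt6 (outermost start, chr10:81627517-81627816): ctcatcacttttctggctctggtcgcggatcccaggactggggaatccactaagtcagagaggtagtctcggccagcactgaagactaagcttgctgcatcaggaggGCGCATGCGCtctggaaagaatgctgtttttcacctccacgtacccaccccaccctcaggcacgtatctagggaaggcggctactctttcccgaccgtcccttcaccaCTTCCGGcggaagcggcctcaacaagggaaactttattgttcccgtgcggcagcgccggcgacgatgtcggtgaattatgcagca
Sirt1 (chr10:63338986-63339285): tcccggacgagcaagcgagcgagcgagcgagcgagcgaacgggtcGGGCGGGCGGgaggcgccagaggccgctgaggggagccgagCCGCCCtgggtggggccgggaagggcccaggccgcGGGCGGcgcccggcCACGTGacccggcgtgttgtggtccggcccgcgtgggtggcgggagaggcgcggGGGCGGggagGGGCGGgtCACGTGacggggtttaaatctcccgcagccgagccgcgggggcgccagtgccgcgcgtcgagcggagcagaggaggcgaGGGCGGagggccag
Sirt3 (inner start, chr7:140881820-140882119): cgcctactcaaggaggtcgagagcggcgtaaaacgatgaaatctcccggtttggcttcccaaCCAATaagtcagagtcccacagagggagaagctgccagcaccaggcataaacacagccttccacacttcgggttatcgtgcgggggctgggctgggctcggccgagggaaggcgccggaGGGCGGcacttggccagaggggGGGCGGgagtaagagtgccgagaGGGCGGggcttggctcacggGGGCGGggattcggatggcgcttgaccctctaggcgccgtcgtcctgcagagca

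These promoters were rich in CpG dinucleotides. The Sirt1 promoter held 47, the Brd3 promoter 46, the outermost Brd2 promoter 32, the Sirt3 promoter 24 and the outermost Sirt6 promoter 20, where the median over 32817 mouse promoters of the same length was 7. The windows at the outermost Brd2 and Sirt6 starts each held an NRF1 site, a motif found in 0.966% of those promoters, and an ETS site, found in 8.86%. The windows at the other 2 Brd2 starts and at the other Sirt6 start, which also lie wholly in the regions, held neither, had 1 GC box each, and had 24 and 14 CpG dinucleotides at Brd2 and 21 at Sirt6. The Sirt1 promoter had 7 GC boxes, 2 of them overlapping, and 2 E-boxes, motifs found in 35.6% and 7.15% of promoters. The Brd3 promoter had 2 GC boxes. The Sirt3 promoter had 4 GC boxes and a CCAAT box (37.4% of promoters). The TATA box (13.6%) and the cyclic AMP response element (1.79%) had no match in these 5 windows. A match describes the letters of the window and was not set against binding data.

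The regions differed in how they lay over the genes. The Brd2 start region (chromosome 17, 34115792 to 34123989, mm10) spanned 8197 bp, was longer than 99.7% of the 10196 regions within 5 kb of a start, and covered all 3 RefSeq starts of the gene. It reached 1382 bp before the outermost start and 6814 bp beyond it, and also covered a start of H2-DMa, which encodes a chain of the class II antigen loading chaperone and begins beside Brd2. The second Brd2 region (chromosome 17, 34114089 to 34114715), annotated to exon 8 of a non-coding Brd2 transcript, lay 5498 bp from the start used in the file and was 99.2% exonic in GENCODE. The Brd3 region (chromosome 2, 27474202 to 27475723, 1521 bp) began 325 bp before the RefSeq start and ran 1195 bp beyond it, where the file annotates it to intron 1. In GENCODE Brd3 begins further upstream, at 27507662, and the nearest region, named for Wdr5, lay 7537 bp from there. The Sirt1 region (chromosome 10, 63337242 to 63340009, 2767 bp) ran from 974 bp before to 1792 bp after the RefSeq start and was annotated to exon 1. In GENCODE Sirt1 also begins further upstream, at 63381704, and the nearest region, named for Dnajc12, lay 162 bp from there. The Sirt6 region (chromosome 10, 81626804 to 81627961, 1157 bp) covered both RefSeq starts of that gene and was annotated as a promoter. The Sirt3 region (chromosome 7, 140881418 to 140881918) was 500 bp long, the shortest length in the table, covered the inner start and ended 391 bp short of the outer one. GC content ran from 47.4% in the Brd2 exon region to 61.5% at Brd3, with 52.2% as the median of all regions.

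**Figure D1:**
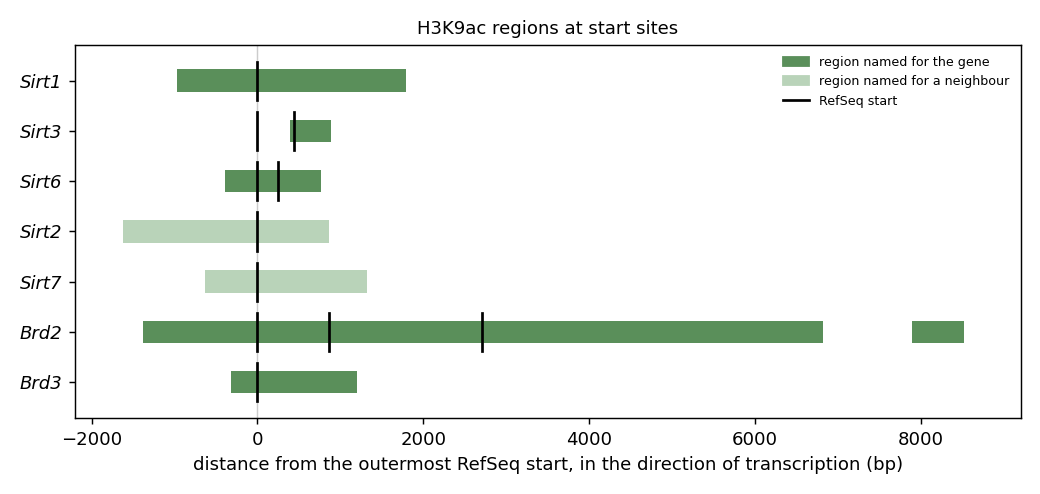
Regions with H3K9ac (bars) and RefSeq starts (black lines) of each gene, with the distance in bp from the outermost start in the direction of transcription on the horizontal axis. The Brd2 region of 8197 bp covers 3 starts and a second, short region follows it, the Sirt3 region covers the inner start alone, and the bars of Sirt2 and Sirt7 are regions named for a neighbouring gene.

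Mean levels over the 6 libraries ran, high to low, in the order Brd2 start, Sirt6, Brd3, Sirt1, Sirt3 and Brd2 exon. The Brd2 start region averaged 5.35 ± 0.39 RPKM (SD, n = 6), above 90.8% of the regions within 5 kb of a start. Sirt6 at 3.55 ± 0.30 RPKM and Brd3 at 3.47 ± 0.57 RPKM (SD, n = 6 each) lay near the middle of the same regions, at percentiles 59.1 and 56.9. These neighbours in the order did not differ beyond their spread, Sirt6 being the higher in 4 of 6 libraries. Sirt1 averaged 2.75 ± 0.16 RPKM (SD, n = 6), at percentile 36.7, and lay below Brd3 in 6 of 6 libraries although their ranges overlapped. Sirt3 had 1.48 ± 0.49 RPKM and the Brd2 exon region 1.12 ± 0.33 RPKM (SD, n = 6 each), at percentiles 12.7 and 6.77, and Sirt3 was the higher in 4 of 6 libraries. In counts per library size over the whole region (CPM), not per length, the Brd2 start region had 43.8 CPM and Sirt1, with its longer region, came second at 7.62 CPM, ahead of Brd3 at 5.28 CPM and Sirt6 at 4.11 CPM. The order turned between the groups for 2 pairs of neighbours. Sirt6 averaged 3.32 RPKM and Brd3 3.05 RPKM in butyrate libraries, while in vehicle libraries Sirt6 averaged 3.77 RPKM and Brd3 3.89 RPKM. Sirt3 averaged 1.80 RPKM and the Brd2 exon region 0.857 RPKM in butyrate libraries, while in vehicle libraries Sirt3 averaged 1.165 RPKM and the Brd2 exon region 1.392 RPKM.

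**Figure D2:**
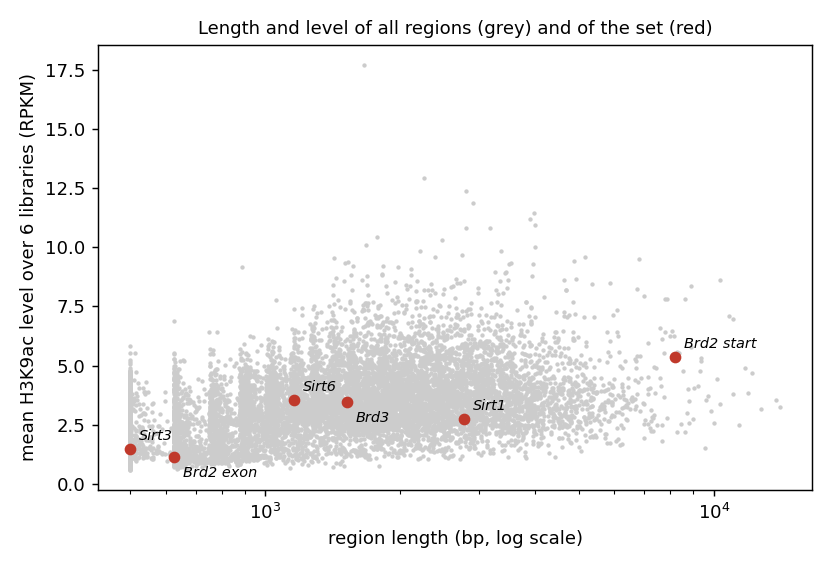
Mean H3K9ac level over 6 libraries (RPKM, vertical axis) against region length (bp, log scale) for all 11251 regions (grey points), with the 6 regions of the set in red. The Brd2 start region is at 8197 bp and 5.35 RPKM, Sirt6, Brd3 and Sirt1 lie within the main cloud, and Sirt3 and the Brd2 exon region lie among the short, weak regions.

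Sirt1, whose product deacetylates histones and transcription factors such as the Foxo proteins, had 2.48, 2.83 and 2.71 RPKM in the butyrate libraries S4, S5 and S6 and 2.87, 2.69 and 2.94 RPKM in the vehicle libraries S1, S2 and S3. The groups overlapped. Limma on log2(RPKM + 1) gave a log2 difference of -0.06 ± 0.11 (SE), with a 95% interval of -0.30 to 0.17 and an adjusted p of 0.92. This interval bounds a change in either direction on that scale and does not show that the groups were equal.

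Sirt6, whose product removes the acetyl group from lysine 9 of histone H3 itself, had 3.35, 3.28 and 3.34 RPKM in butyrate libraries and 3.48, 3.83 and 4.01 RPKM in vehicle libraries. All butyrate libraries lay below all vehicle libraries, the closest being 3.35 and 3.48 RPKM. The log2 difference was -0.14 ± 0.10 (SE, 95% interval -0.35 to 0.07) with a limma adjusted p of 0.76. Voom, fitted on the reads recovered from the RPKM, gave -0.17 with a wider SE of 0.18 (voom adjusted p 0.80). The region held 68 to 87 reads in butyrate and 79 to 104 reads in vehicle libraries, for which counting alone gives a relative SD of 10.7% at the mean of 86.7 reads.

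Sirt3 encodes the main deacetylase of the mitochondrial matrix. Its region had 2.25, 1.90 and 1.24 RPKM in butyrate libraries, which were 25, 17 and 14 reads. The vehicle libraries had 1.085, 1.345 and 1.064 RPKM, which were 14, 12 and 11 reads. The groups overlapped through butyrate library S6. The log2 difference was 0.36 ± 0.18 (SE, 95% interval -0.03 to 0.74, limma adjusted p 0.70), and voom on the recovered reads, which adds no pseudocount of 1 RPKM, gave 0.58 ± 0.40 (SE, adjusted p 0.66). Just beyond the outer Sirt3 start lay the start region of Psmd13, a proteasome subunit gene, with 1.10 ± 0.26 RPKM in butyrate and 1.33 ± 0.22 RPKM in vehicle libraries (SD, n = 3 each).

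Brd2, a BET protein that binds acetylated histone H4 and is present in most tissues, had 5.15, 4.69 and 5.34 RPKM over its start region in butyrate libraries and 5.57, 5.80 and 5.53 RPKM in vehicle libraries. The groups did not overlap, and the highest butyrate library lay 5.34 against 5.53 RPKM for the lowest vehicle library. These values rested on 689 to 986 reads in butyrate and 849 to 1179 reads in vehicle libraries. The log2 difference was -0.13 ± 0.08 (SE, 95% interval -0.31 to 0.05, limma adjusted p 0.74), and voom gave -0.15 ± 0.07 (SE, adjusted p 0.44).

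The Brd2 exon region, further into the gene, had 0.864, 0.714 and 0.993 RPKM in butyrate libraries, which were 12, 8 and 14 reads. The vehicle libraries had 1.609, 1.253 and 1.314 RPKM, which were 26, 14 and 17 reads. The groups did not overlap here either. The log2 difference was -0.37 ± 0.18 (SE, 95% interval -0.75 to 0.02, limma adjusted p 0.70) and by voom -0.69 ± 0.41 (SE, adjusted p 0.60). Counting alone gives a relative SD of 25.7% at its mean of 15.2 reads. Within each library the level of the exon region was 0.168, 0.152 and 0.186 times that of the start region in butyrate and 0.289, 0.216 and 0.238 times in vehicle. Since both regions lie in 1 gene, they are not separate observations of the BET genes.

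Brd3, a BET protein known in erythroid cells to bind the acetylated factor Gata1, had 3.35, 2.83 and 2.98 RPKM in butyrate libraries and 3.90, 4.35 and 3.43 RPKM in vehicle libraries. All butyrate libraries lay below all vehicle libraries, with 3.35 against 3.43 RPKM at the closest. The log2 difference was -0.27 ± 0.11 (SE) with a 95% interval of -0.50 to -0.04 before adjustment, an unadjusted limma p of 0.027 and an adjusted p of 0.64. It was the smallest p of the set and rank 437 of 10529 regions tested. Voom on the 77 to 113 reads in butyrate and 108 to 153 reads in vehicle libraries gave -0.33 ± 0.16 (SE, adjusted p 0.49).

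**Figure D3:**
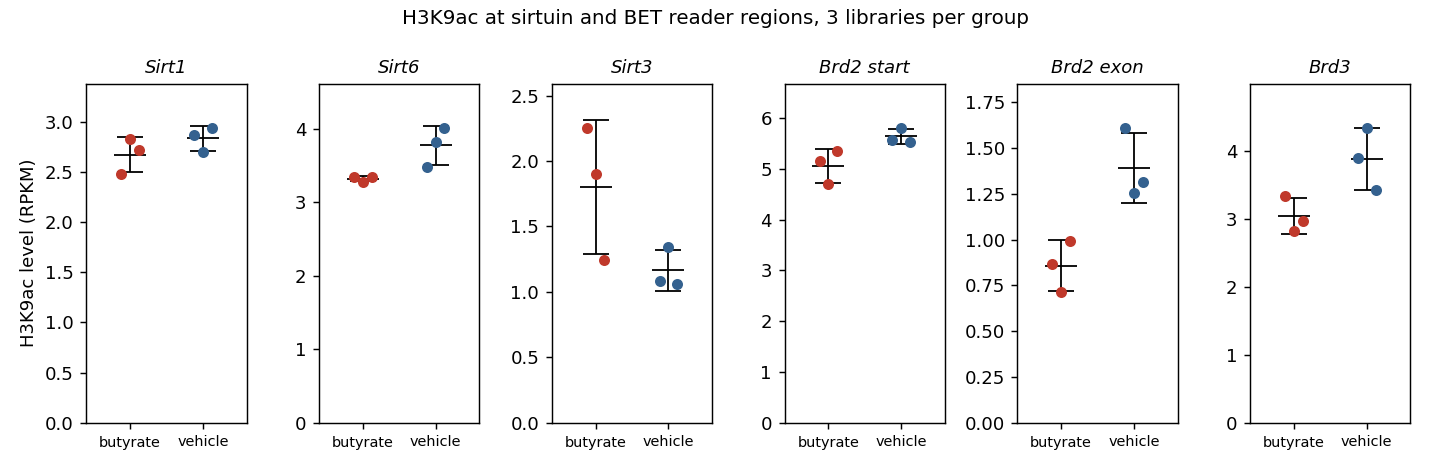
H3K9ac level (RPKM, each panel with its own axis from 0) in the 3 butyrate and the 3 vehicle libraries at the 6 regions, with points for libraries and bars for the mean and SD. Butyrate libraries lie below all vehicle libraries at Sirt6, both Brd2 regions and Brd3, and the groups overlap at Sirt1 and Sirt3.

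All 6 regions passed the filter of a mean of at least 1 RPKM. Non-overlapping groups with butyrate below occurred at 4 of 6 regions, against 6.85% of the 10529 regions tested and 7.35% of all 11251. The reverse, with butyrate above, occurred at 0 of 6, against 6.11% of those tested and 6.83% of all. Of the 4 regions with butyrate below, 2 lie in Brd2, and the members were chosen with earlier results of these data known. The share at the 6 regions is therefore a description and not a test. Of the 6 log2 differences 5 were negative, with a median of -0.14, beside a median of -0.10 for the epithelial markers, where 49.97% of all tested regions were negative and the median was 0.00. Limma called 0 of 6 at an adjusted p of 0.05, against 0% of all regions, and 1 of 6 had an unadjusted limma p under 0.05, against 7.27% in either direction and 3.91% with butyrate lower. Voom called 0 of 6, against 0.142% of 11251 regions, and 2 of 6, Brd3 and the Brd2 start region, had an unadjusted voom p under 0.05, against 9.49% in either direction and 5.19% with butyrate lower. The authors' deposited table called 0 of 6 at its FDR of 0.1, against 0.249% of regions, and in the authors' deposited table the FDR of the 6 ran from 0.442 at Brd3 to 0.888 at Sirt1. With 3 libraries per group an exact permutation test over libraries cannot give a two-sided p below 0.1.

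The genes without a region of their own name fell into 2 kinds. The start of Sirt2, which encodes a tubulin deacetylase, lay in a region named for Nfkbib, an inhibitor of NF-kB that begins beside it (chromosome 7, 28765130 to 28767610). Its levels were 2.42, 2.79 and 2.83 RPKM in butyrate and 2.70, 2.58 and 2.83 RPKM in vehicle libraries. These groups overlapped, with a log2 difference of -0.01 ± 0.11 (SE, 95% interval -0.25 to 0.23, limma adjusted p 0.99). The start of Sirt7, a nuclear and nucleolar deacetylase, lay in a region named for the microRNA gene Mir6936 (chromosome 11, 120623695 to 120625641). It had 3.82, 2.93 and 2.53 RPKM in butyrate and 3.286, 4.002 and 3.629 RPKM in vehicle libraries. The groups overlapped through butyrate library S4, and the log2 difference was -0.19 ± 0.13 (SE, limma adjusted p 0.75). The start of Sirt5, which encodes a mitochondrial desuccinylase, lay in no region, and the nearest was the Nol7 region, 32635 bp away.

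Other genes of the families were set beside these. The start of Sirt4, a mitochondrial sirtuin gene, had 2.19 ± 0.15 RPKM in butyrate and 2.40 ± 0.47 RPKM in vehicle libraries (SD, n = 3 each), with overlapping groups. A second region named for Sirt4, upstream of the gene and annotated as intergenic, had 4.14 ± 0.84 RPKM in butyrate and 4.11 ± 0.25 RPKM in vehicle libraries (SD, n = 3 each). Brdt, the BET gene of the testis, had its nearest region 106580 bp from its start.

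Ratios of regions within a library do not depend on how libraries are scaled to each other. The level at Brd3 was 0.651, 0.602 and 0.557 times that at the Brd2 start in butyrate libraries and 0.699, 0.749 and 0.621 times in vehicle libraries. These ratios overlapped between the groups, with a difference of -0.19 on the log2 scale (exact two-sided permutation p 0.2). The ratio of the Brd2 exon region to the Brd2 start region, given above, was lower in all 3 butyrate libraries, with a mean log2 ratio of -2.57 ± 0.15 in butyrate and -2.03 ± 0.21 in vehicle (SD, n = 3 each) and an exact permutation p of 0.1, the smallest this design allows. Sirt3 was 0.673, 0.579 and 0.372 times Sirt6 in butyrate libraries and 0.311, 0.351 and 0.265 times in vehicle libraries. All butyrate ratios lay above all vehicle ratios, with a difference of 0.77 on the log2 scale (exact permutation p 0.1). Sirt6, the denominator, was itself lower in every butyrate library than in every vehicle library. The Sirt3 region held 11 to 25 reads per library and the Brd2 exon region 8 to 26, so both of these ratios rest on few reads. Sirt1 over Sirt6 overlapped between the groups, at 0.739, 0.861 and 0.812 in butyrate and 0.824, 0.704 and 0.732 in vehicle libraries (exact permutation p 0.4). Adjusted over these 4 ratios, which were chosen with the values known, the smallest p was 0.2.

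**Figure D4:**
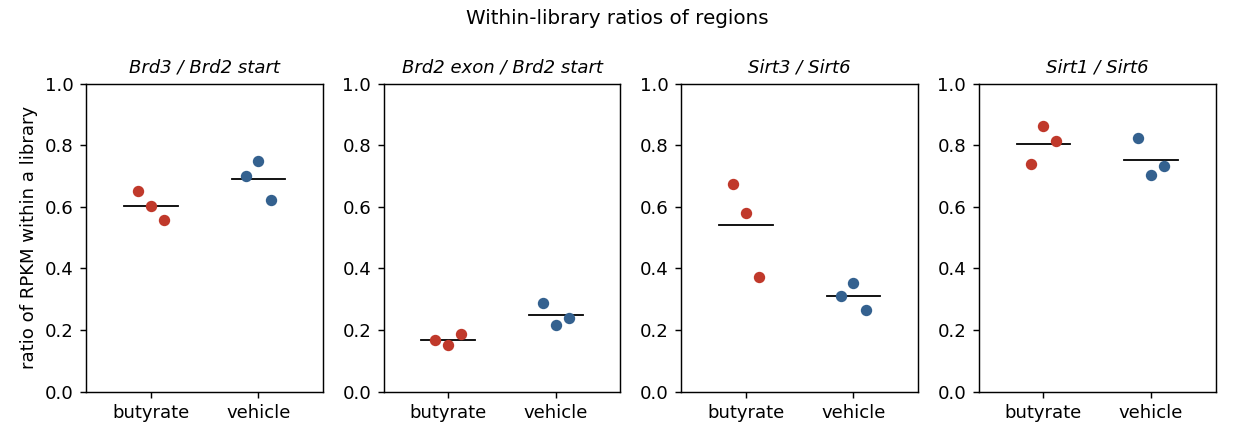
Ratio of RPKM between regions within each library (vertical axis, from 0), with points for the 3 butyrate and the 3 vehicle libraries and lines for group means. The groups do not overlap for the Brd2 exon over the Brd2 start region and for Sirt3 over Sirt6, and they overlap for Brd3 over Brd2 and for Sirt1 over Sirt6. The Brd2 exon and Sirt3 regions hold few reads.

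**Figure D5:**
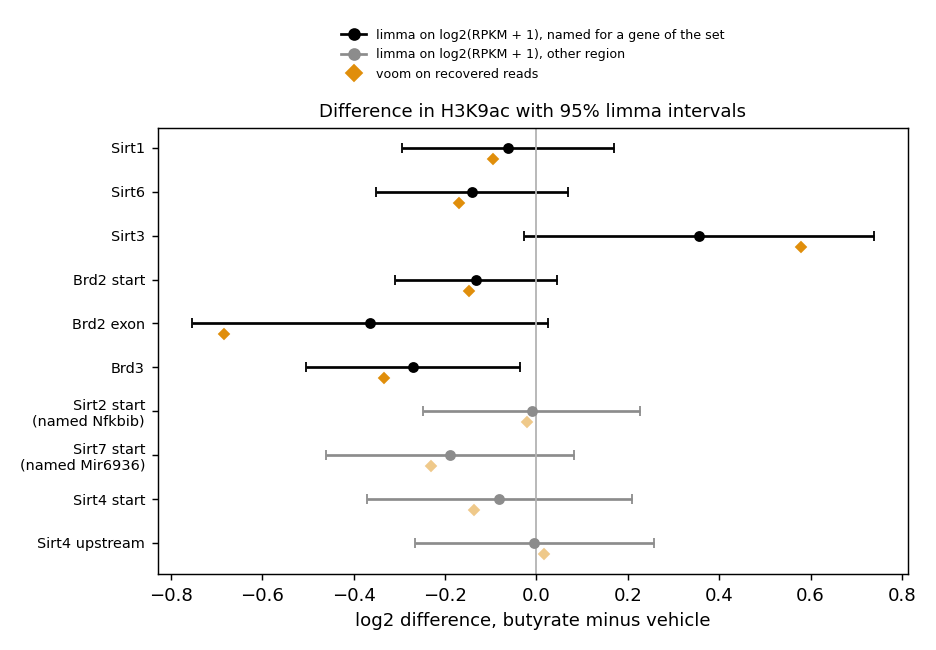
Log2 difference, butyrate minus vehicle, with 95% limma intervals (circles) and the voom estimate (diamonds), for the 6 regions of the set (dark) and for the regions over the starts of Sirt2, Sirt7 and Sirt4 and upstream of Sirt4 (pale). The interval of Brd3 alone lies wholly on 1 side of 0 before adjustment, and Sirt3 and the Brd2 exon region have the widest ones.

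Genes that supply NAD, the cosubstrate of sirtuins, or consume it were tested at 10 of 18 genes, 9 lower and 1 higher with butyrate. Of all regions tested, 49.97% were lower. The median log2 difference of the list was -0.08 against 0.00 over all regions tested, and 0 were called by limma. The summed level of the list was 31.8 to 36.8 RPKM in butyrate and 36.8 to 37.9 RPKM in vehicle libraries. The smallest p was at Naprt, whose enzyme starts NAD synthesis from nicotinic acid, with 4.60 ± 0.25 RPKM in butyrate and 5.76 ± 0.39 RPKM in vehicle libraries (SD, n = 3 each; log2 difference -0.27 ± 0.09, SE, limma adjusted p 0.57, and 0.41 by voom). Its groups did not overlap. Bst1, an ADP-ribosyl cyclase gene, was the 1 with a higher mean, at 2.91 RPKM in butyrate and 2.44 RPKM in vehicle libraries, and its groups did not overlap either (log2 difference 0.18 ± 0.11, SE, limma adjusted p 0.73). Of all regions tested, 6.85% had groups without overlap and butyrate below, and 6.11% had them with butyrate above. Slc25a51, for the carrier of NAD into mitochondria, had a log2 difference of -0.09 ± 0.11 and Nadk, for NAD kinase, -0.07 ± 0.12 (SE).

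Regulators and substrates of sirtuins were tested at 14 of 18 genes, 4 higher and 10 lower with butyrate (median log2 difference -0.07). Sod2 and Idh2, mitochondrial enzymes that Sirt3 deacetylates, had log2 differences of -0.25 ± 0.14 and 0.20 ± 0.11 (SE), the smallest p in each direction. Partners and elongation factors of BET proteins were tested at 18 of 21 genes, 10 higher and 8 lower (median 0.02). Ell, a gene of the super elongation complex, had 4.37 ± 0.46 RPKM in butyrate and 3.32 ± 0.56 RPKM in vehicle libraries (SD, n = 3 each). Its groups did not overlap, with butyrate above, as at 6.11% of all regions tested. The log2 difference at Ell was 0.32 ± 0.12 (SE, limma adjusted p 0.60, and 0.16 by voom). Atad5, whose product unloads the replication clamp, had the smallest p among those with a lower mean, with a log2 difference of -0.15 ± 0.11 (SE); the lowest log2 difference of the list was -0.16. Nsd3, a histone methyltransferase gene, Ell2 and Aff4, a scaffold of the super elongation complex, had log2 differences of -0.01, -0.07 and 0.02.

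Other bromodomain genes were tested at 28 of 35, 15 higher and 13 lower with butyrate (median 0.01). Brd9, a subunit of a BAF remodelling complex, had 0.41 ± 0.15 (SE, limma adjusted p 0.60) with overlapping groups, and Baz1a, a subunit of the ACF remodeller, had -0.14 ± 0.09. Readers with YEATS or double PHD finger domains were tested at 8 of 10 genes, 3 higher and 5 lower (median 0.00), with Kat6b at 0.16 ± 0.08 and Phf10 at -0.13 ± 0.09 (SE). Limma called 0 genes in any of these lists and voom called 0. An unadjusted limma p under 0.05 was found at 7.27% of all regions tested. In the lists it was found at Naprt, 1 of 10 genes, Ell, 1 of 18, and Brd9, 1 of 28. It was found at 0 of 14 regulators and substrates of sirtuins and at 0 of 8 readers with YEATS or double PHD finger domains.

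The regions whose course over the 6 libraries was most like the mean course of the 5 regions at starts of the set were Epb41l5, Dnm1 and Syncrip, with Pearson r of 0.997, 0.991 and 0.989 as a description. They were taken from 5391 regions within 5 kb of a start with at least 100 mean reads, of which 34 had an r over 0.9. The 5 regions at starts did not share a course, so this likeness is to their mean alone. Sirt3 had r of -0.728 to -0.385 with the others. Sirt1 had r of -0.002 with Brd3, 0.124 with the Brd2 start and 0.419 with Sirt6. The Brd2 start, Brd3 and Sirt6 had r of 0.603 to 0.844 with each other.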

How the data were processed

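H3K9ac was measured by ChIP-seq in 3 butyrate and 3 vehicle libraries; 2 input libraries were not analysed here. The submitters' processing notes name mm10, STAR, Picard, HOMER and edgeR, without saying what each did, and the sources used here do not say how regions were called or reads counted. Per the file headers, the authors deposited RPKM per library, mean RPKM and mean CPM per group, a log2 fold change and log2 CPM, and a p-value and FDR per region. Column names give a library's group but no sample. Multiplied by region length, 100% of RPKM values were whole multiples of the value of 1 read (tolerance 0.01 reads), which gave the reads, 1255251 to 1828591 in regions per library.

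Limma 3.58.1 (R 4.3.3) was fitted on log2(RPKM + 1) with trend and robust empirical Bayes on all 10529 regions with a mean RPKM of at least 1 (722 left out), with Benjamini-Hochberg adjustment over all of them at 0.05. On this scale the change at a weak region comes out too small. Voom on the recovered reads was an alternative. Coordinates are as the file gives them, with length as end minus start. Starts, promoters and genes came from RefSeq GRCm38.p6 and GENCODE M21, and all 8 genes had a promoter sequence. A list's gene was represented by its region with most reads within 5 kb of its start. Every region of the set was named, and of each list the smallest p in each direction, with the 3 of most reads for NAD metabolism and BET partners. The members and lists were chosen with earlier results of these data known. Intervals cover the spread between libraries and relative SDs of reads counting error only. Scaling, filter, pseudocount, threshold and leaving out libraries were varied.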

Additional observations from a re-analysis of the deposited data

How the results depend on the processing

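No paired analysis was possible because the columns carry no replicate numbers of the labels. Each region of the set was refitted with 6 leave-one-out fits and at most 10 other settings. This gave 92 values, each of 1 region in 1 setting. All 92 kept the direction and none passed an adjusted p of 0.05. Leaving out each library gave log2 differences of -0.34 to -0.20 at Brd3, -0.17 to -0.09 at the Brd2 start, -0.42 to -0.30 at the Brd2 exon region, -0.19 to -0.11 at Sirt6, -0.09 to -0.02 at Sirt1 and 0.24 to 0.51 at Sirt3. Limma called 0 regions in all with any pseudocount, filter, scaling or threshold tried and whichever library was left out, whereas voom called 16 on all regions and 9 on regions with at least 25 mean reads, none of them in the set. Voom on all regions called none in the pathway lists. A minimum of 2 RPKM left out Sirt3 and the Brd2 exon region, and so did a minimum of 25 reads, so these 2 have no value there. Ordered by CPM instead of per length, 4 of the 6 regions kept their rank. A further count model was planned only in case the deposited values were raw counts. They were RPKM, and that model was not run on the recovered reads. Depth limits Sirt3 and the Brd2 exon region most, at means of 15.5 and 15.2 reads.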
